A study of Homo sapiens with 8 samples.

Results

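Integrins and the proteins that tie them to actin were examined in prostate cancer cells before and after an epithelial-mesenchymal transition (EMT) and after ZEB1 knockdown. The 45 genes comprise integrin alpha and beta subunits, talins and kindlins, the ILK complex, kinases and docking proteins, actin linkers and caveolins. They were listed by name, and where several probe sets carried a gene's symbol and no other, the brightest on average over the 8 arrays stood for it. Of the 45, 43 were measured, out of 19775 genes in the whole series. All 4 probe sets of ITGB6 also carried another symbol, and the expression of FLNA was not analysed here. Both genes entered only the promoter windows below.

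Transcripts were measured on Affymetrix arrays in the PC3 prostate cancer line, with 1 array per sample. The EMT lines, PC3-EMT1, PC3-EMT12 and PC3-EMT14 (3 arrays, with values always in that order), were mesenchymal populations isolated after co-culture of PC3-Epi with IL-4-treated, M2-type macrophages and then passaged, and PC3-Epi (1 array) was the luciferase-expressing epithelial population they came from. PC3-EMT1 and PC3-EMT14 cells had further been transduced with lentivirus carrying ZEB1 shRNA (sh4, 2 arrays) or a scrambled shRNA (Scr, 2 arrays), so that sh4 and Scr cells share the luciferase background, the co-culture history and a viral vector. All levels are log2 values, and the untransduced and transduced arrays had been scaled apart (array medians of 4.33 to 4.35 and of 6.19 to 6.23), so levels were compared only within each set. Each line is 1 derived population, PC3-Epi has no replicate, and nothing describes separate cultures within a group, so p-values reflect how far these lines and their arrays scattered, which may be technical. ZEB1 and VIM were higher and CDH1 lower in EMT lines than in PC3-Epi, and ZEB1 was lower and CDH1 higher in sh4 than in Scr. VIM differed by -0.33 between sh4 and Scr and did not pass the test used below. Where 1 group lay under the brightest bacterial control of its set of arrays (4.56 untransduced, 6.0 transduced), the fold against that control is given as a bound. ZEB1 was at least 4.75-fold higher in EMT lines, CDH1 was at least 107-fold lower in EMT lines and at least 12.9-fold higher in sh4, VIM differed by 1.91 between EMT and PC3-Epi, and ZEB1 by -0.91 between sh4 and Scr. Of 11 macrophage markers measured, 10 lay under the highest bacterial control probe set on each untransduced array, and their summed linear level was 167 to 168 on EMT arrays and 155 on the PC3-Epi array.

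Integrins are paired alpha and beta chains that span the membrane and bind extracellular matrix. Chains that recognise collagen (alpha1, alpha2, alpha10, alpha11), laminin (alpha3, alpha6, alpha7, beta4) and the RGD motif of fibronectin, vitronectin and latent TGF-beta (alphaV, alpha5, alpha8, beta3, beta5, beta6, beta8) differ in the matrix they read, and beta1 pairs with most alpha chains. Inside the cell, talins and kindlins bind beta tails and switch the receptor on, while ILK, FAK, paxillin, vinculin and their partners build the focal adhesion and link it to actin. Epithelial cells rest on laminin through alpha6beta4 in hemidesmosomes, and a change in the integrin repertoire is a known companion of EMT.

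The promoters of 2 pairs of neighbouring members are printed because one pair, ITGA1 and ITGA2 on chromosome 5, differed in opposite directions between EMT and PC3-Epi cells, and the other, CAV2 and CAV1 on chromosome 7, differed in the same direction. In the RefSeq annotation no other protein-coding gene lay wholly between the members of either pair. ITGA6 is shown as a member whose most upstream window holds the E-box that ZEB1 is known to bind. Each run holds the 250 bases before the most upstream RefSeq start of the gene in GRCh38.p14, 5′ to 3′, with any CACCTG or CAGGTG (each the other's reverse complement) in capitals.
ITGA1, chr5:52787666-52787915, plus strand: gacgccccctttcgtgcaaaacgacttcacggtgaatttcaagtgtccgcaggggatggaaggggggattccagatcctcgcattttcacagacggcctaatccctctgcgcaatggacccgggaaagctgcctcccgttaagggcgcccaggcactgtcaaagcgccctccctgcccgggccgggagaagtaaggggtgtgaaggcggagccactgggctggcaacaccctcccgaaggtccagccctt
ITGA2, chr5:52989102-52989351, plus strand: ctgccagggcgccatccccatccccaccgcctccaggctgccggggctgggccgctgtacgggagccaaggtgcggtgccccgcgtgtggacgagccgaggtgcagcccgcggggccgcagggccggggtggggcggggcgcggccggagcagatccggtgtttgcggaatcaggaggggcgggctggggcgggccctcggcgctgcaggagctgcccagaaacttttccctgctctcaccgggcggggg
CAV2, chr7:116499488-116499737, plus strand: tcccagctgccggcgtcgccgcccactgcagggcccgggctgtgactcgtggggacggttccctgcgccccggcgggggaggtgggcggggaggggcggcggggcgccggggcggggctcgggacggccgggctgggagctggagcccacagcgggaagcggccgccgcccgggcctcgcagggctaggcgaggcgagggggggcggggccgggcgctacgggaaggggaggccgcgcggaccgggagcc
CAV1, chr7:116524759-116525008, plus strand: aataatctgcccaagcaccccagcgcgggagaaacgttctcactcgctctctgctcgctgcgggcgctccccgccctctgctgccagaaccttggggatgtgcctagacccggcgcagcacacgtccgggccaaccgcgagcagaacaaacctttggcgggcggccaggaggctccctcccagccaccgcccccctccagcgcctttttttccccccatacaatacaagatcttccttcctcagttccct
ITGA6, chr2:172427086-172427335, plus strand: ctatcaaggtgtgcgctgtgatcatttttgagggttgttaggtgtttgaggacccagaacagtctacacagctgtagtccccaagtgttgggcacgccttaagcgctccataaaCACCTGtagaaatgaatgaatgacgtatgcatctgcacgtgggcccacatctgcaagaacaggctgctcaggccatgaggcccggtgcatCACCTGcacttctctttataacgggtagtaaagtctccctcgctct

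The printed ITGA6 window held 2 E-boxes, which began 136 and 46 bases before the start, and the other 4 printed windows held none. Another RefSeq window of ITGA6, directly downstream and not printed, held none either. GC content was 62.0% for ITGA1 and 76.4% for its neighbour ITGA2, and 83.2% for CAV2 and 63.6% for CAV1, against a median of 58.0% over all promoters in the table. RefSeq windows were matched for 34 of the 45 genes (65 windows), of which 16.9% held the motif, against 17.5% of all 35116 windows. A match is a description of these letters and not a measured binding site.

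The first comparison asked how the adhesion genes of the EMT lines differed from those of PC3-Epi. Of the 38 members with at least 1 untransduced array at log2 5 or above, 11 were higher in EMT lines and 9 lower (limma, Benjamini-Hochberg adjusted p under 0.05), beside 13.9% and 15.4% of the 11921 genes tested. The median difference was 0.16 over the members tested and 0.07 over all genes tested. ITGB8 passed the filter only through PC3-Epi, and ITGA1 and ITGA8 passed only through EMT lines. These members had to differ to be tested, so the counts are a description. LIMS1, ITGA4, TNS1, ITGA9 and ITGA11 stayed under log2 5 on all 4 arrays and were not tested. A 2-fold difference in the same direction in all 3 lines was found for 1 higher and 6 lower members, beside 2.95% and 4.9% of genes tested.

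**Figure D1:**
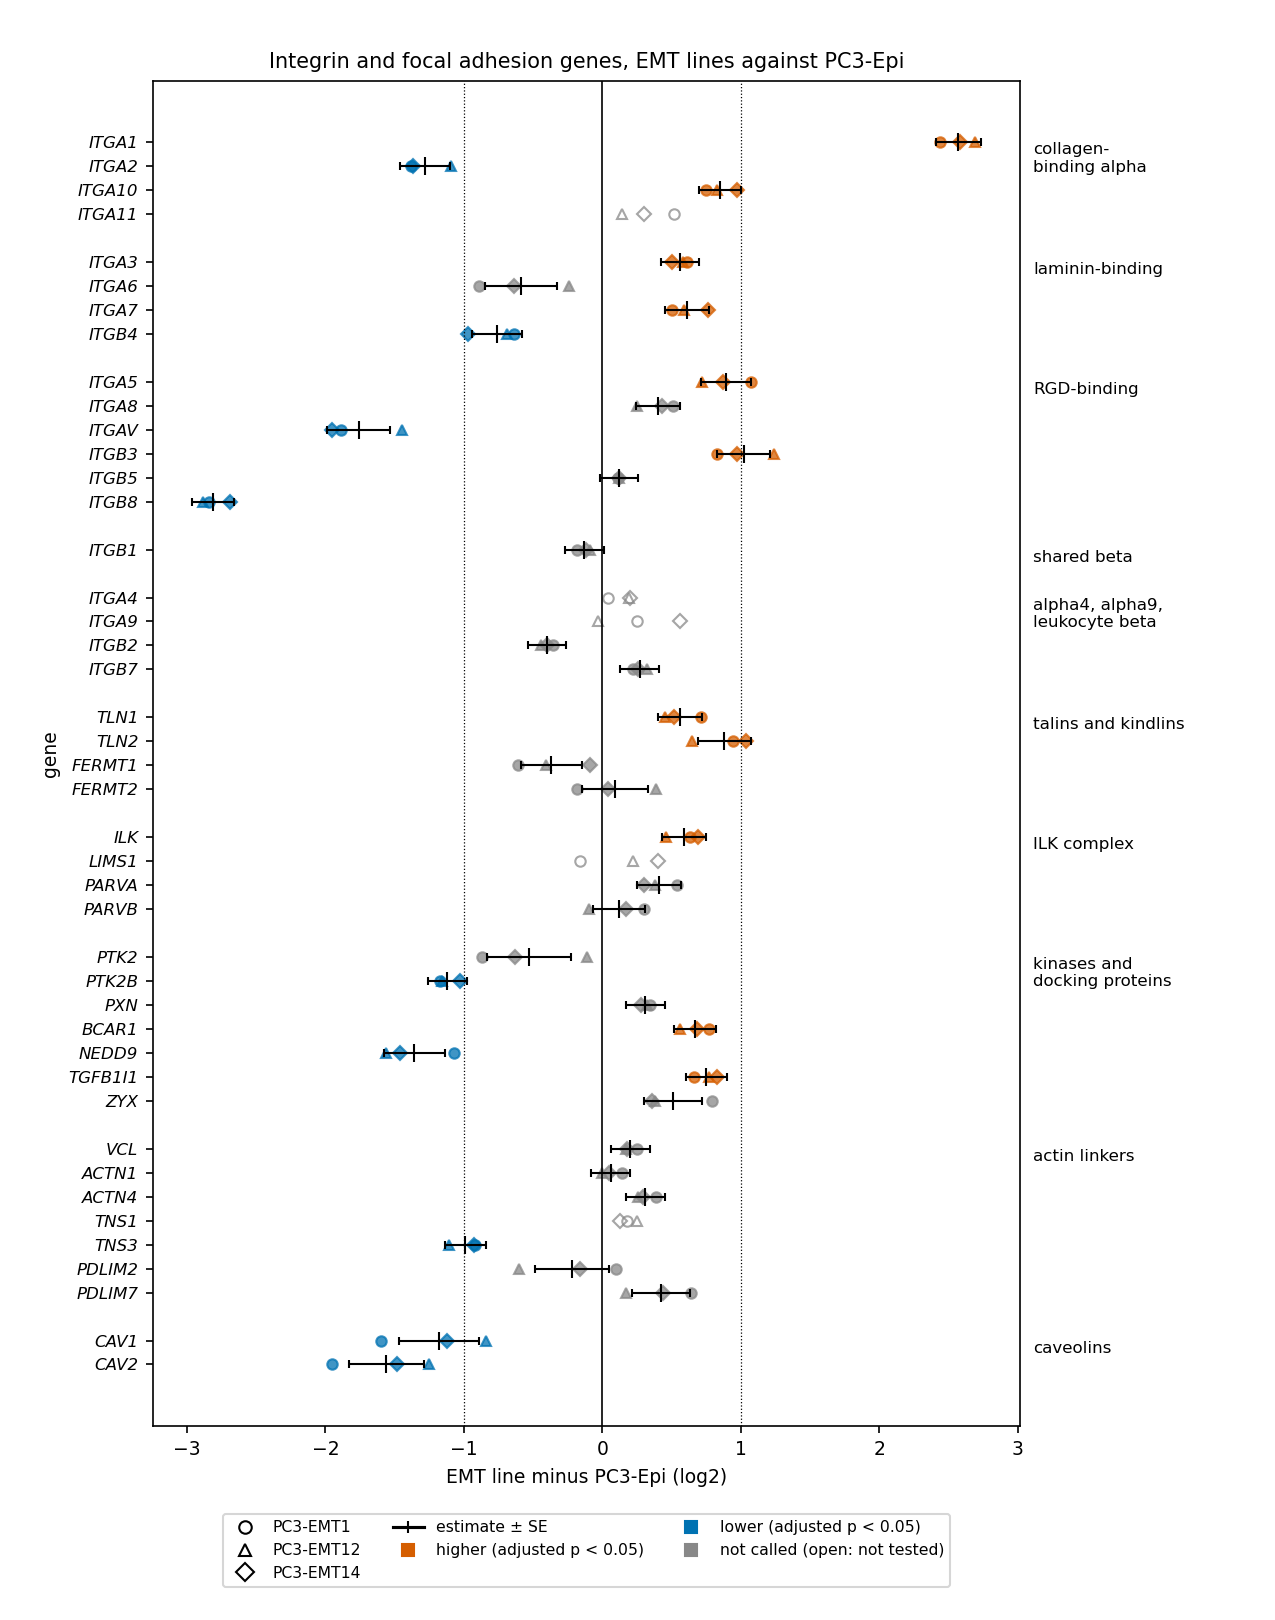
Difference of each EMT line from PC3-Epi (log2, horizontal axis; circles, triangles and diamonds stand for the lines EMT1, EMT12 and EMT14) for the 43 measured members, grouped by role, with the limma estimate ± SE in black and dotted lines at 2-fold. ITGA1 lies alone on the right at 2.57 and ITGB8 on the left at -2.81, while ITGB1 lies at -0.13.

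Among the collagen-binding alpha chains, ITGA1 was higher and ITGA2 lower in EMT lines. ITGA1 encodes alpha1, a receptor with preference for the collagen of basement membranes, and had levels of 6.95, 7.20 and 7.09 in the EMT lines, against 4.51 in PC3-Epi. The PC3-Epi level lay below the brightest bacterial control (4.56), and all 3 EMT lines lay far above it. ITGA1 was thus at least 5.73-fold higher in EMT lines. The fitted difference of the measured values was 2.57 ± 0.16 (SE; 3 EMT lines, 1 PC3-Epi array) with an adjusted p of 0.00064, and the call also stood with no filter on dim genes. In such bulk samples, a change in the number of cells that express a gene and a change in RNA per cell cannot be told apart. ITGA2, whose alpha2 chain prefers fibrillar collagen, had 8.22, 8.52 and 8.24 in the EMT lines, against 9.61 in PC3-Epi. Every EMT line was below PC3-Epi by over 1 log2 unit, and the difference was -1.28 ± 0.18 (adjusted p = 0.00669). The other probe set of ITGA2 was also lower in each line but under 2-fold, with -0.92, -0.80 and -0.90. ITGA10, a collagen receptor known from cartilage, rose by 0.85 ± 0.15 (adjusted p = 0.0146).

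In the laminin-binding group, ITGA3 and ITGA7 rose by 0.56 and 0.61 and ITGB4 fell by 0.76 in EMT lines, with adjusted p-values between 0.0294 and 0.0374. None of these 3 calls was kept without PC3-EMT14, that of ITGA3 was also lost without PC3-EMT1, and that of ITGB4 with the mean of its probe sets. ITGB4 encodes the beta4 chain of hemidesmosomes, and its partner alpha6 is encoded by ITGA6. ITGA6 had 8.99, 9.64 and 9.25 in the EMT lines, against 9.88 in PC3-Epi. All 3 lines were below PC3-Epi, PC3-EMT12 by the least, and the difference of -0.59 (95% interval -1.23 to 0.05) did not pass the test (adjusted p = 0.134). Without PC3-EMT12 it did (adjusted p = 0.0313). The hemidesmosome partners did not move in 1 direction: plectin (PLEC) and the tetraspanin CD151 rose by 0.60 and 0.71, whereas dystonin (DST), the plakin that anchors keratin filaments, fell by 1.01.

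The RGD-binding group held the members that fell the most. ITGB8, whose beta8 chain pairs with alphaV and binds latent TGF-beta, had 4.12, 4.08 and 4.27 in the EMT lines, against 6.96 in PC3-Epi. All 3 EMT levels lay under the brightest bacterial control while PC3-Epi lay well above it, so that ITGB8 was at least 5.29-fold lower in EMT lines. The fitted difference of the measured values was -2.81 ± 0.15 (adjusted p = 0.000397), and the call also stood with no filter on dim genes. ITGAV, the alpha chain shared by beta3, beta5, beta6 and beta8, had 6.49, 6.92 and 6.42 in the EMT lines, against 8.37 in PC3-Epi. The 3 lines lay within 0.50 of each other and at least 1.45 below PC3-Epi, for a difference of -1.76 ± 0.23 (adjusted p = 0.00558).

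ITGB3, which encodes the beta3 chain of the vitronectin receptor, went the other way from its partner ITGAV, with 6.35, 6.76 and 6.49 in the EMT lines, against 5.52 in PC3-Epi. By the probe set used, the rise was 1.02 ± 0.19 (adjusted p = 0.0163), and PC3-EMT1 and PC3-EMT14 stayed under 2-fold with 0.83 and 0.97. The second brightest probe set of ITGB3 was past 2-fold in every line, with 1.88, 2.21 and 2.05. ITGA5, the alpha chain of the fibronectin receptor, rose by 0.89 ± 0.18 (adjusted p = 0.019). ITGB5 differed by 0.12 (95% interval -0.21 to 0.45, adjusted p = 0.523).

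ITGB1, the beta chain that most of these alpha chains need, had 12.53, 12.62 and 12.60 in the EMT lines, against 12.71 in PC3-Epi. The 4 arrays lay close together, and the difference was -0.13 (95% interval -0.47 to 0.21, adjusted p = 0.496). Among the leukocyte-type chains, ITGB2 differed by -0.40 and ITGB7 by 0.27, and neither passed. The alpha partners of beta2 that mark macrophages, ITGAM and ITGAX, had 4.05 to 4.16 and 4.06 to 4.14 in the EMT lines, against 4.27 and 3.82 in PC3-Epi, all under the highest bacterial control probe set.

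**Figure D2:**
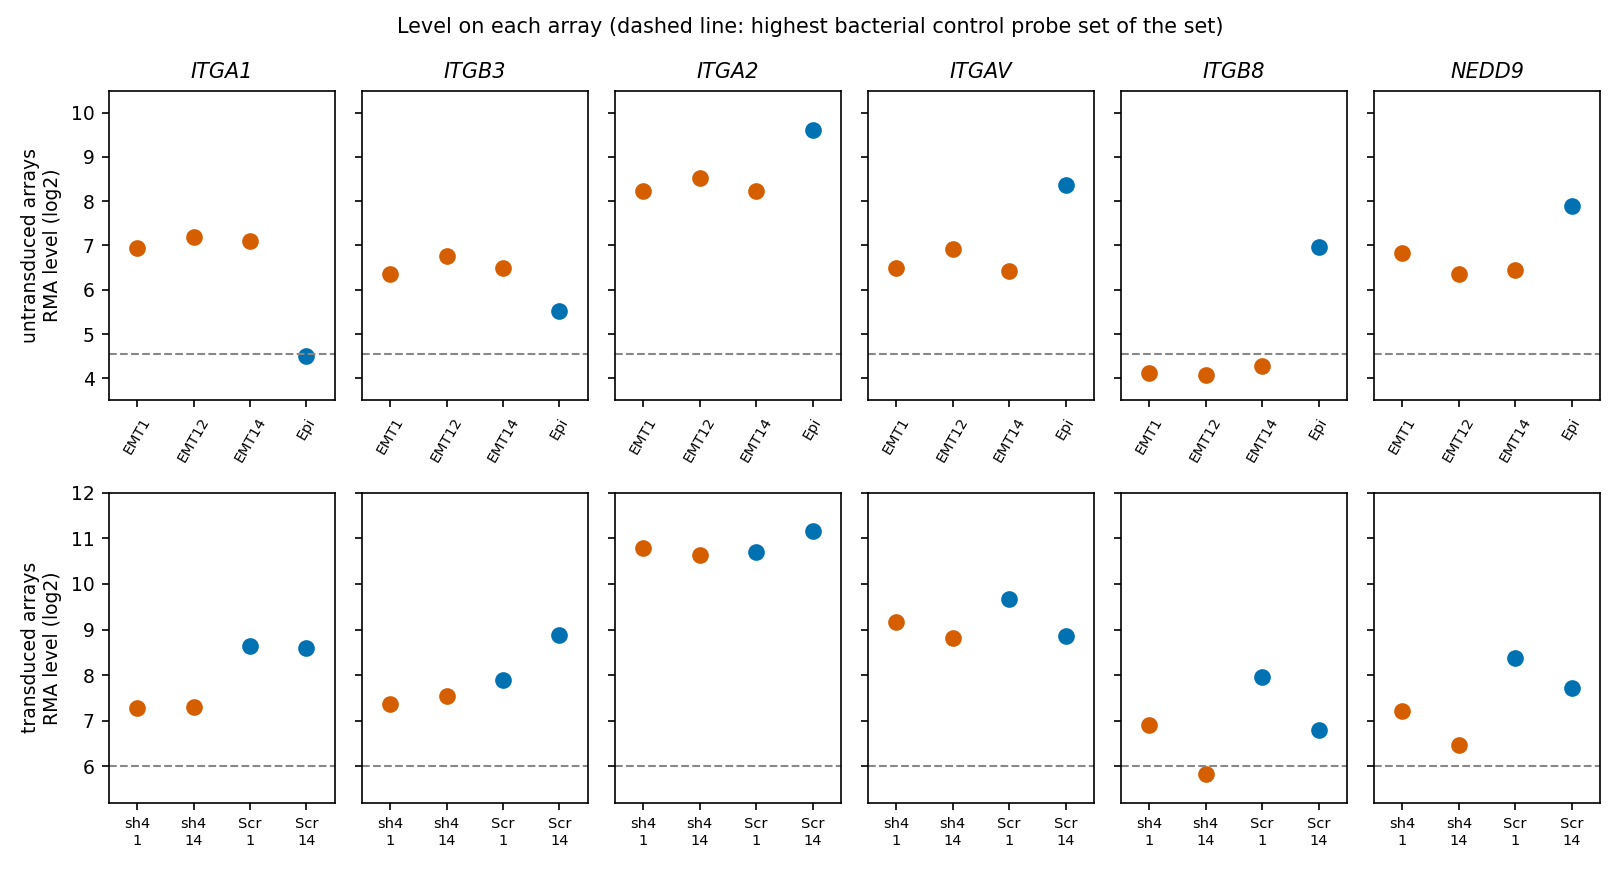
Level (log2) of 6 members on each array, with untransduced arrays in the upper row (EMT lines in orange, PC3-Epi in blue) and transduced arrays in the lower row (sh4 in orange, Scr in blue; 1 and 14 are the lines). The dashed line is the highest bacterial control probe set (4.56 above, 6.0 below), and the rows have separate axes because the sets were scaled apart.

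The activators of integrins rose or did not pass the test. TLN1 and TLN2, the talins that bind beta tails, rose by 0.56 and 0.88 in EMT lines (adjusted p = 0.0496 and 0.0233), TLN1 at the limit of the test. FERMT1, the kindlin of epithelia, differed by -0.37 and FERMT2 by 0.09, neither past the test. In the ILK complex, ILK rose by 0.59 ± 0.16 (adjusted p = 0.0386), whereas the parvins PARVA (0.41) and PARVB (0.12) did not pass.

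Of the 7 kinases and docking proteins, 2 rose, 2 fell and 3 did not pass, beside 13.9% higher and 15.4% lower of all genes tested. PTK2B encodes the FAK-related kinase PYK2 and had 5.91, 5.92 and 6.05 in the EMT lines, against 7.08 in PC3-Epi. The lines lay within 0.14 of each other, and the difference was -1.12 ± 0.14 (adjusted p = 0.00556). PTK2, which encodes FAK itself, differed by -0.87, -0.11 and -0.63 and did not pass (adjusted p = 0.212), although it did without PC3-EMT12 (0.0314).

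NEDD9 and BCAR1 encode docking proteins of the Cas family, which carry signals from FAK and SRC. NEDD9 had 6.84, 6.35 and 6.44 in the EMT lines, against 7.90 in PC3-Epi, a difference of -1.36 ± 0.22 (adjusted p = 0.0106). PC3-EMT1 was the nearest to PC3-Epi. BCAR1 rose by 0.67 ± 0.15 (adjusted p = 0.0265), as did TGFB1I1, the paxillin relative Hic-5, by 0.75 ± 0.15 (adjusted p = 0.0172). PXN (0.31) and ZYX (0.51) did not pass.

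Of the actin linkers, VCL, ACTN1, ACTN4, PDLIM2 and PDLIM7 differed by -0.22 to 0.42 and did not pass, and TNS3, a tensin that joins beta tails to actin, fell by 0.99 ± 0.15 (adjusted p = 0.00934). Both caveolins, the coat proteins of plasma membrane caveolae, were lower. CAV2 had 9.10, 9.79 and 9.56 in the EMT lines, against 11.04 in PC3-Epi, a difference of -1.56 ± 0.27 (adjusted p = 0.0132). CAV1 fell by 1.18 ± 0.29 (adjusted p = 0.0322), by line -1.60, -0.84 and -1.12. In both genes PC3-EMT1 was lowest and PC3-EMT12 highest of the EMT lines. CAVIN1, a coat partner of the caveolins, had 4.97, 4.66 and 5.06 in the EMT lines, against 4.69 in PC3-Epi. These levels lay close to the brightest bacterial control, and CAVIN1 passed the filter on dim genes only through PC3-EMT14. Its difference of 0.21 did not pass (adjusted p = 0.435), but levels this dim cannot show whether CAVIN1 stayed the same.

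The spread between EMT lines was alike in these genes and in others, with a median SD over the 3 lines of 0.13 both for the members tested and for all genes tested. Among the 20 members called, PC3-EMT1 lay furthest from PC3-Epi for 8, PC3-EMT14 for 7 and PC3-EMT12 for 5. Without PC3-EMT14, 4 of the 11 higher calls and 8 of the 9 lower calls were kept. The rises that lost their call (ITGA3, ITGA7, TLN1, TLN2, ILK, BCAR1 and TGFB1I1) were then 0.54 to 0.80, with adjusted p-values of 0.0592 to 0.141, while the calls over all genes fell to 732 higher and 1109 lower. The call of ILK was also lost without PC3-EMT1, that of BCAR1 when its probe sets were averaged, and that of TLN1 in 6 of 11 settings. Without PC3-EMT12, 11 members were lower, namely the same 9 with ITGA6 and PTK2. All 7 members that differed 2-fold in every line were called whichever line was left out.

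The other adhesion genes, 47 regulators and linkers listed beside the members, were counted in the same way. Of 44 measured and 42 tested, 4 rose and 4 fell in EMT lines, beside 13.9% and 15.4% of all genes tested. The median difference was 0.05 in this list and 0.07 over all genes tested. The largest rises were LPXN (leupaxin, of the paxillin family) at 1.15, CSRP1 (a LIM protein of actin bundles) at 0.73 and GIT2 (an ARF GTPase-activating scaffold that binds paxillin) at 0.73. The largest falls were SORBS2 (a vinculin-binding adaptor) at -2.48, ARHGAP26 (GRAF, a FAK-binding GTPase-activating protein) at -1.05 and LPP (a zyxin relative) at -0.87. SORBS2 had 3.73, 3.61 and 3.95 in the EMT lines, against 6.25 in PC3-Epi, so that the EMT levels lay under the bacterial control limit and SORBS2 was at least 3.22-fold lower in EMT lines. It passed the filter only through PC3-Epi and so had to differ to be tested.

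The second comparison asked what ZEB1 knockdown did to the same genes within PC3-EMT1 and PC3-EMT14. Of 41 members tested, 1 was higher and 2 lower in sh4 than in Scr (limma with the line as a block, adjusted p under 0.05), beside 0.69% and 0.486% of the 16661 genes tested. By the probe sets used, the same 3 members, ITGA1, NEDD9 and PDLIM2, were those that differed 2-fold in both lines, beside 0.276% (higher) and 0.132% (lower) of genes tested. The median difference was -0.13 over the members and 0.02 over all genes tested, and 12 members had an unadjusted p under 0.05, beside 18.6% of genes tested. The standard errors used the EMT arrays of both lines as well. In the 4 transduced arrays alone, limma called none of the 16661 genes, with 1324 higher and 1175 lower at an unadjusted p under 0.05.

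ITGA1 had 7.27 in PC3-EMT1 and 7.30 in PC3-EMT14 with sh4, against 8.63 and 8.59 with Scr. The lines gave nearly the same fall, -1.36 and -1.29, and the groups were far apart beside their spread. The difference was -1.32 ± 0.12 (SE, 2 lines), 2.50-fold lower in sh4 (adjusted p = 0.00533; 0.157 in the 4 transduced arrays alone). ITGA1 was thus higher in EMT than in PC3-Epi and lower in sh4 than in Scr.

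NEDD9 had 7.22 and 6.46 with sh4 in PC3-EMT1 and PC3-EMT14, against 8.37 and 7.72 with Scr. Both sh4 levels were below both Scr levels, with differences of -1.15 and -1.27. The mean was -1.21 ± 0.13 (adjusted p = 0.0135), so NEDD9 was lower in EMT than in PC3-Epi and lower again in sh4 than in Scr. The call was lost without the sh4 array of PC3-EMT14, when the line was not used as a block or was a random block, with the mean of the probe sets (-0.18) and in the 4 transduced arrays alone. The faintest probe sets in that mean lay under the bacterial control limit of 6.0 on every transduced array.

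PDLIM2, a PDZ and LIM protein that binds alpha-actinin and also targets nuclear factors for degradation, had 8.90 and 9.42 with sh4, against 7.88 and 7.99 with Scr. The groups did not overlap, and the rise was larger in PC3-EMT14 (1.44) than in PC3-EMT1 (1.02). The mean was 1.23 ± 0.18 (adjusted p = 0.0333), and the call was lost under the same 5 settings as that of NEDD9. Between EMT and PC3-Epi, PDLIM2 had 8.56, 7.87 and 8.31 in the EMT lines, against 8.46 in PC3-Epi, and did not pass (adjusted p = 0.564).

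**Figure D3:**
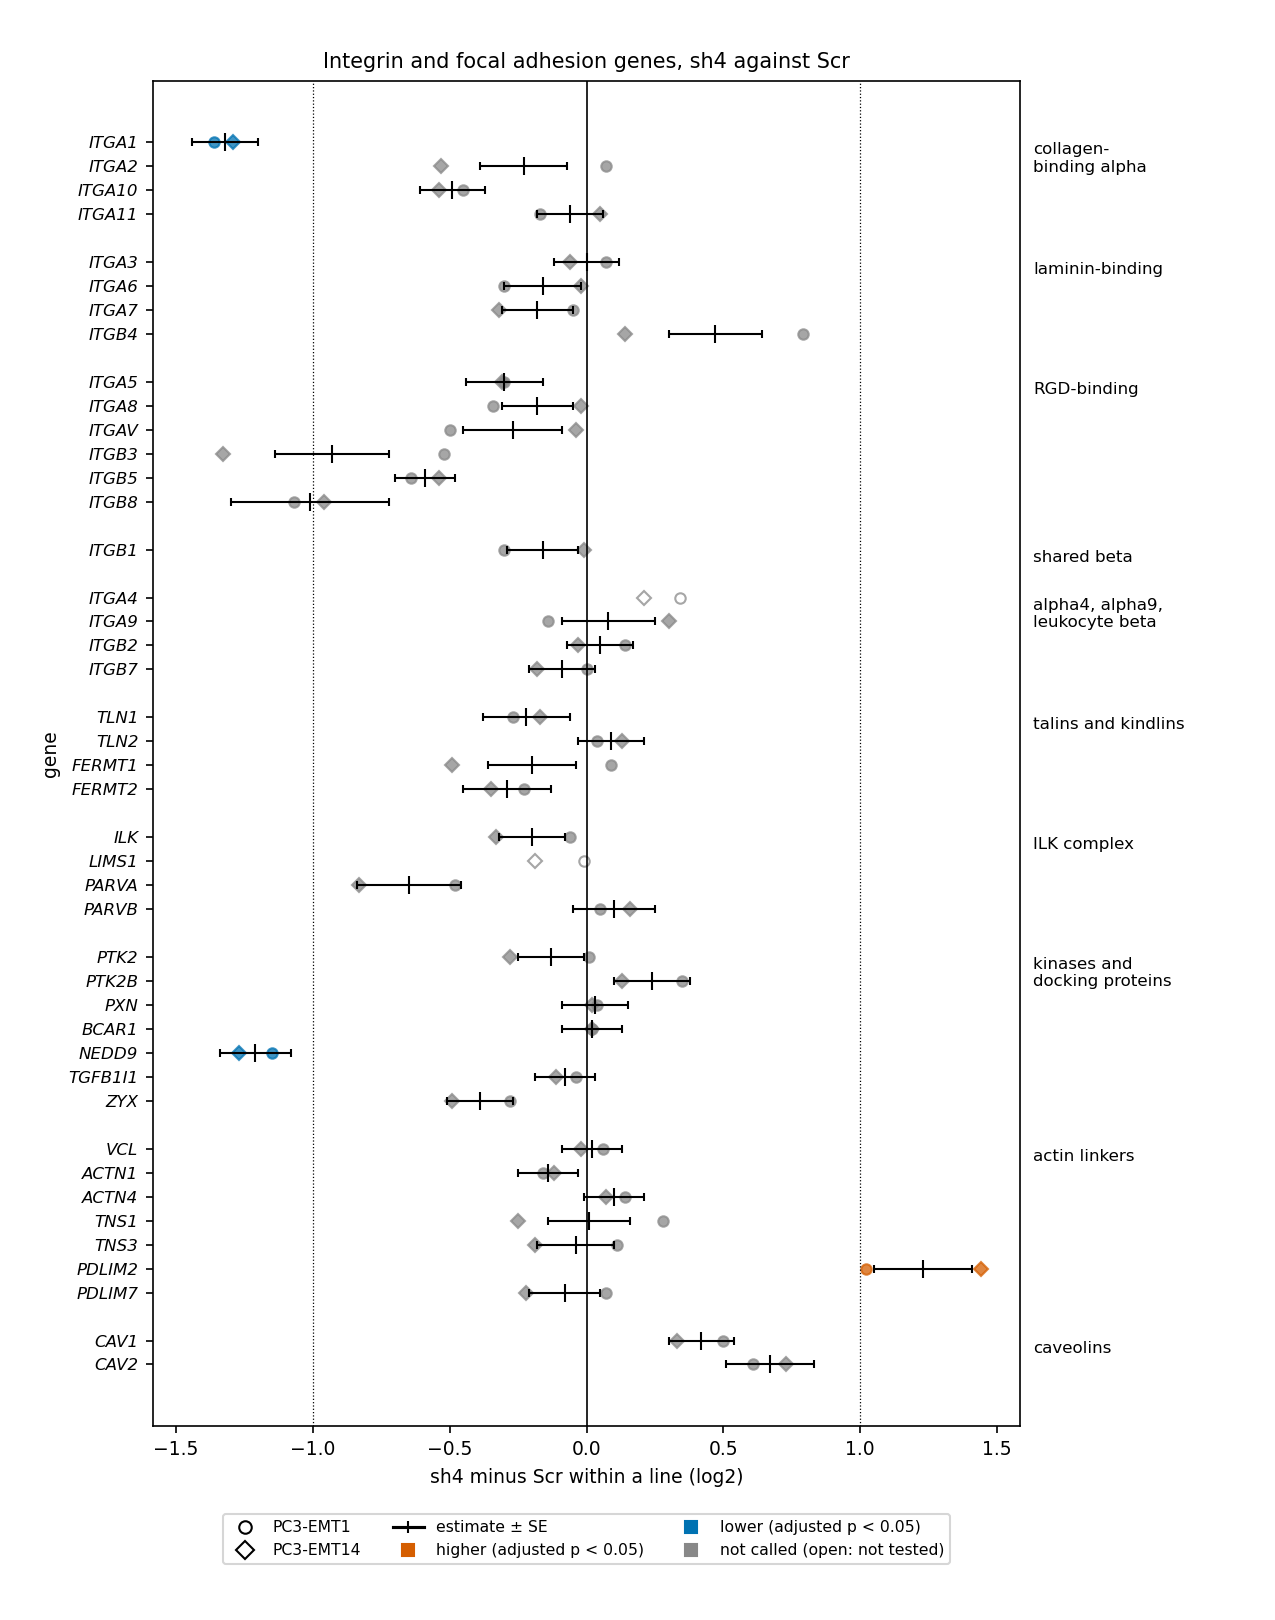
Difference of sh4 from Scr (log2, horizontal axis) within PC3-EMT1 (circles) and PC3-EMT14 (diamonds) for the 43 measured members, grouped by role, with the limma estimate ± SE in black and dotted lines at 2-fold. ITGA1, NEDD9 and PDLIM2 are the members past the test and past 2-fold in both lines.

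None of the 6 RGD-binding members measured passed the test, and all 6 had differences at or below -0.18. ITGB8 had 6.91 and 5.83 with sh4 in PC3-EMT1 and PC3-EMT14, against 7.97 and 6.79 with Scr. Within each line sh4 was below Scr, by 1.07 in PC3-EMT1 and by at least 0.79 in PC3-EMT14, where the sh4 level lay under the bacterial control limit of 6.0. Across lines the groups overlapped. The fitted difference of -1.01 ± 0.29 had an adjusted p of 0.141 (0.0423 without the Scr array of PC3-EMT14). ITGB3 had 7.37 and 7.55 with sh4, against 7.89 and 8.88 with Scr. Its difference was -0.52 in PC3-EMT1 and -1.33 in PC3-EMT14 (adjusted p = 0.0863), and it passed only without the Scr array of PC3-EMT1 (0.00344). The second brightest probe set of ITGB3 differed more, by -1.06 in PC3-EMT1 and -2.71 in PC3-EMT14. ITGB5 differed by -0.64 and -0.54 (adjusted p = 0.0641), and passed with 32 added on the linear scale or with a filter at log2 7. ITGAV had 9.17 and 8.82 with sh4, against 9.67 and 8.86 with Scr, a difference of -0.27 (95% interval -0.68 to 0.15) that did not pass.

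The other hubs did not pass. ITGB1 had 13.14 in both lines with sh4, against 13.44 and 13.15 with Scr, a difference of -0.16 (95% interval -0.46 to 0.15). Other bright probe sets of ITGB1 fell further in PC3-EMT14. The next brightest gave -0.19 in PC3-EMT1 and -0.72 in PC3-EMT14, and the one after it -0.13 and -0.97. ITGA6 had 11.00 and 11.10 with sh4, against 11.30 and 11.12 with Scr, a difference of -0.16 (95% interval -0.48 to 0.17). ITGB4 differed by 0.79 in PC3-EMT1 and by 0.14 in PC3-EMT14 (adjusted p = 0.196).

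CAV2 had 10.94 and 10.96 with sh4, against 10.33 and 10.24 with Scr. The groups did not overlap, and the difference of 0.67 ± 0.16 missed the threshold (adjusted p = 0.0947; 0.0401 without the Scr array of PC3-EMT1). CAV1 differed by 0.50 and 0.33 (adjusted p = 0.138). PTK2B had 7.38 and 7.75 with sh4, against 7.02 and 7.62 with Scr, and was higher with sh4 within each line (0.35 and 0.13). ITGA2 had 10.78 and 10.64 with sh4, against 10.71 and 11.16 with Scr, and differed by 0.07 and -0.53 by line. In both genes the groups overlapped across lines, and neither passed (adjusted p = 0.398 and 0.481). Of the other adhesion genes, none of 44 passed, and 5 had an unadjusted p under 0.05, beside 18.6% of genes tested. KANK1, a talin-binding scaffold, was nearest to the threshold at -0.71 (adjusted p = 0.0572, named after its value was seen).

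Set side by side, the members called between EMT and PC3-Epi did not all turn round with sh4. Of the 11 that were higher in EMT lines, 8 were lower in sh4 than in Scr in both lines (72.7%, beside 52.5% of all 1661 genes that were higher), with a median of -0.20. Of the 9 that were lower, 4 were higher in sh4 in both lines (44.4%, beside 41.1% of 1835 genes) and 3 were lower again. The 4 were ITGB4, CAV1, CAV2 and PTK2B, and the 3 were ITGAV, ITGB8 and NEDD9. All these counts went by sign alone, whatever the size, and of the 8 only ITGA1 passed the test with sh4. Some differences were small, such as -0.04 and -0.11 for TGFB1I1 among the 8, and -0.04 for ITGAV in PC3-EMT14. The second brightest probe set of ITGB4 gave 0.69 in PC3-EMT1 but -0.33 in PC3-EMT14. These shares carry no test, since the members are few and the 2 sets of differences were measured in lines of common origin.

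**Figure D4:**
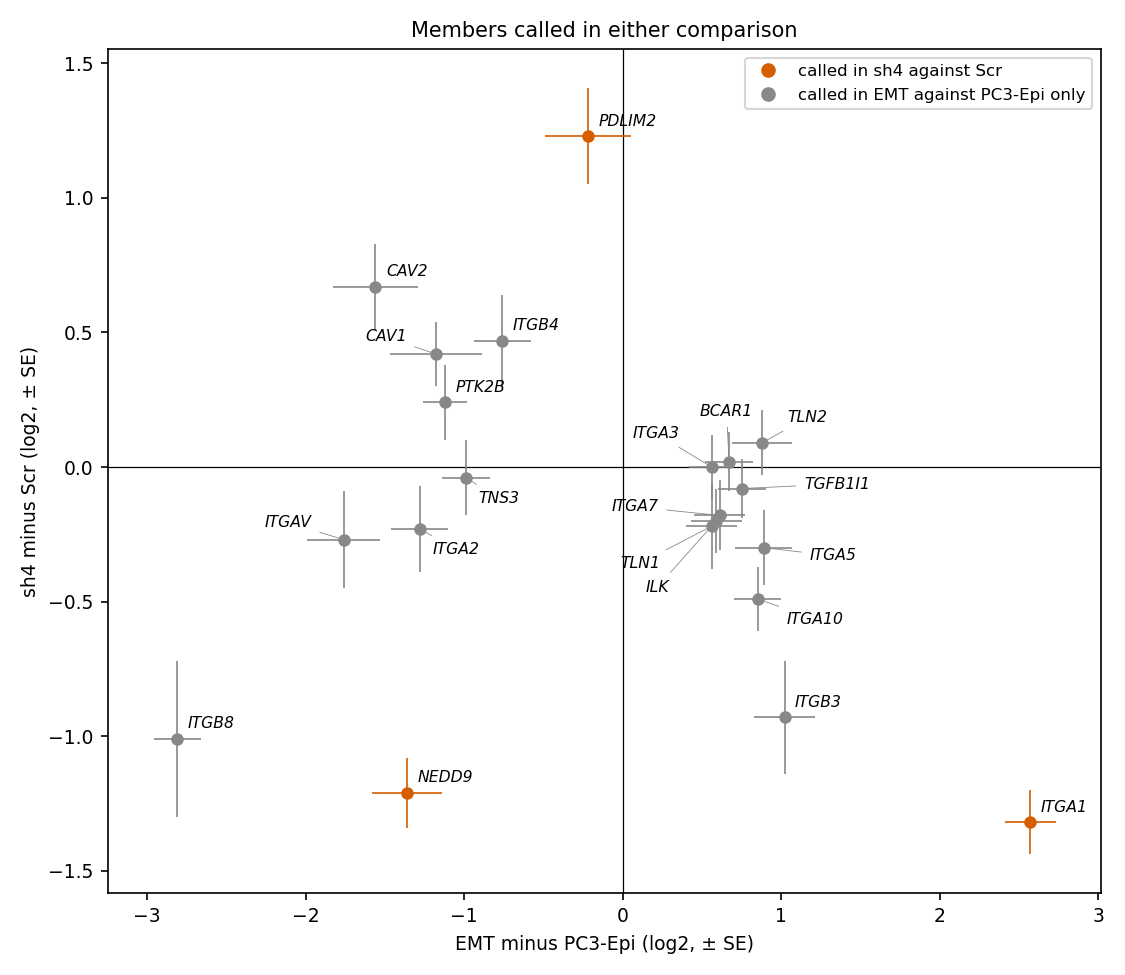
EMT minus PC3-Epi (log2, horizontal axis) against sh4 minus Scr (log2, vertical axis), each as estimate ± SE, for the 21 members called in either comparison. ITGA1 lies at the lower right (2.57 and -1.32), NEDD9 and ITGB8 at the lower left (-1.36 and -1.21, and -2.81 and -1.01), and the caveolins at the upper left.

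The third comparison set PC3-EMT14 against PC3-EMT1 in 3 pairs of arrays (untransduced, sh4 and Scr), to show how far these mesenchymal lines differed in adhesion genes. Of 41 members tested, 0 were higher and 1 was lower in PC3-EMT14 (limma, adjusted p under 0.05), beside 1.52% and 0.3% of 16662 genes. At an unadjusted p under 0.05, 6 were higher and 6 lower, beside 9.96% and 6.35% of genes tested, and the median difference was 0.04. No member differed 2-fold in all 3 pairs, beside 0.168% of genes that were higher and 0.03% that were lower. The member called was NEDD9, with differences of -0.39, -0.76 and -0.64 in the untransduced, sh4 and Scr pairs and a mean of -0.60 ± 0.11 (adjusted p = 0.0442). It did not pass when any 1 pair was left out, nor with 32 added on the linear scale, quantile normalization or the mean of its probe sets.

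FERMT1 differed by 0.52, 0.32 and 0.90 in the untransduced, sh4 and Scr pairs, FERMT2 by 0.22, 0.70 and 0.82, and CAV1 by 0.47, 0.26 and 0.44. None of the 3 passed (adjusted p = 0.0719, 0.0777 and 0.1), except where eBayes let the variance follow the level (0.0422, 0.0483 and 0.0493). ITGB8 differed by 0.15 between the untransduced arrays, where both levels were under the bacterial controls, and by -1.08 and -1.18 in the sh4 and Scr pairs. PARVA differed by -0.23, -1.05 and -0.71 in the same pairs (adjusted p = 0.0844). TRIP6, a zyxin relative, was the 1 other adhesion gene called of 44 tested, beside 1.52% of all genes that were higher. Its difference was 0.82 ± 0.12 (adjusted p = 0.0263).

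A gene's probe sets read different stretches of its transcripts, and 35 of the 43 members had more than 1, for 136 in all. ITGA1 had 3, and all were higher in the 3 EMT lines and lower in sh4 in both lines. Its second probe set gave 0.99 and -1.88, and its faintest 0.12 and -1.02, both under the bacterial controls on all untransduced arrays. The faintest also lay under the limit of 6.0 on every transduced array, and the second did with sh4 but not with Scr. All 7 of ITGB3 were higher in the 3 EMT lines, with means from 0.14 to 2.05, although 3 of them lay under the bacterial controls on every untransduced array, and 6 were lower in sh4 in both lines. All 3 of CAV2 and both of CAV1 were lower in the EMT lines and higher in sh4. Of the 5 of ITGB8, 3 were lower in all EMT lines, and only the one used lay above the bacterial controls on the PC3-Epi array. Of the 5 of NEDD9, 3 were lower in all EMT lines, while with sh4 the 2 brightest were lower in both lines (-1.21 and -0.43) and the 3 faintest higher. Those 3 faintest lay under the bacterial control limit of 6.0 on every transduced array. The other probe set of PDLIM2 differed by 0.07 and -0.07 and lay under the bacterial control limit.

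**Figure D5:**
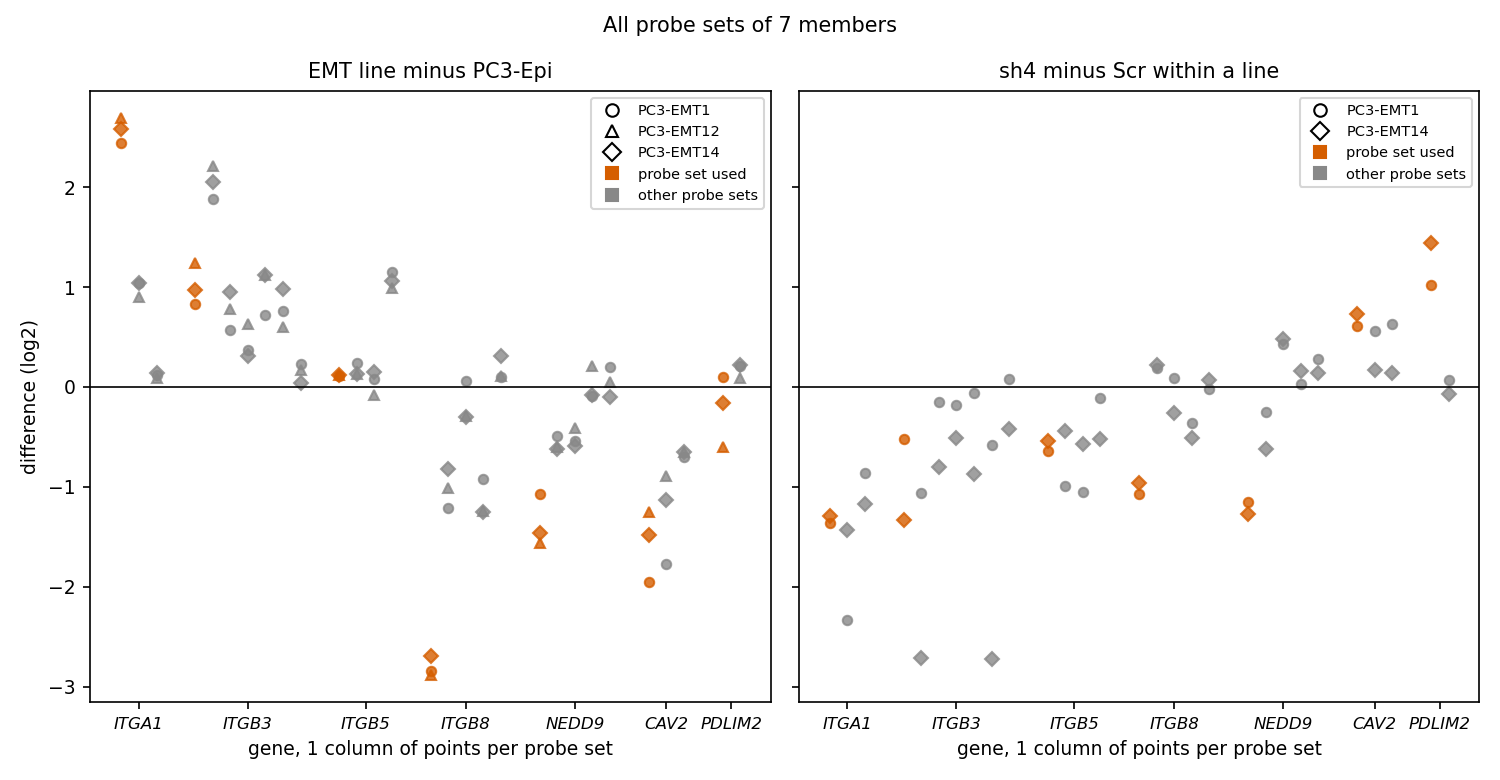
Differences (log2, vertical axis) of every probe set of 7 members, 1 column of points per probe set, for each EMT line minus PC3-Epi (left) and for sh4 minus Scr within each line (right), with the probe set used in orange and the others in grey. All 7 probe sets of ITGB3 lie above 0 on the left, and all 3 of ITGA1 lie below 0 on the right.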

How the data were processed

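The authors hybridised 1 Affymetrix array per sample and deposited log2 values made with RMA (affy package), which were used as deposited. Of 54675 probe sets, 62 were controls and 41091 carried 1 gene symbol, giving 19775 genes. The members and lists were chosen with earlier results of these data known. Genes entered a fit where at least 1 array was at log2 5 or above. Differences were tested in R 4.3.3 with limma 3.58.1 (eBayes, Benjamini-Hochberg over all genes tested, threshold 0.05). EMT against PC3-Epi used the 4 untransduced arrays, with the lone PC3-Epi array assumed to vary like the EMT lines. The other fits took the EMT, sh4 and Scr arrays of both transduced lines (6 arrays), by group and line, with 2 residual degrees of freedom each. Replicate numbers are the line numbers, which pair arrays of 1 line, and the differences between the lines correlated across genes at 0.356, 0.458 and 0.48 between pairs of arrays. Array values were given for members past the test and 2-fold in every line or pair, for members past the test or 2-fold in both lines with sh4, and for ITGB1, ITGAV and ITGA6. Of the other adhesion genes, the 3 largest rises and falls past the test were named. ITGB3, SORBS2, ITGAM, ITGAX, KANK1, TNS4 and CAVIN1 were added after their values were seen. The number of arrays limits the precision. Fits were tested on simulated data. Alternatives covered the filter, probe set choice, normalization, an offset, eBayes options, fold limits, blocking and left-out arrays.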

Additional observations from a re-analysis of the deposited data

How the results depend on the processing

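No member named here changed direction past the test under any alternative run. For EMT against PC3-Epi, the 11 higher calls became 6 with a filter at log2 7 and 7 with the mean of probe sets, and 4 to 11 with 1 EMT line left out (8 to 11 for the 9 lower calls); past 2-fold in every line were 1 higher and 6 lower, past 1.5-fold 6 and 9, and past 3-fold 1 and 1. For sh4 against Scr, the 1 higher and 2 lower calls became 0 and 0 in the 4 transduced arrays alone, 0 and 1 with the mean of probe sets, and 0 and 1 with no replicate block or with the line as a random block; leaving out 1 array gave 0 to 2 higher and 1 to 3 lower. Past 2-fold in both lines were 1 higher and 2 lower, past 1.5-fold 2 and 3, and past 3-fold 0 and 0. For PC3-EMT14 against PC3-EMT1, the 1 lower call became 0 with 32 added, with quantile normalization, with the mean of probe sets, and without any 1 pair (0 to 0; without the untransduced pair, the 4 transduced arrays remain), and the 0 higher became 3 with a trend. Over all genes, EMT against PC3-Epi fell to 732 higher and 1109 lower without PC3-EMT14, against 1661 and 1835. For sh4 against Scr, 115 higher and 81 lower became 10 and 2 with no replicate block, 19 and 5 with a random block, 0 and 0 in the 4 arrays, 31 and 10 without the sh4 array of PC3-EMT14, and 361 and 269 without the Scr array of PC3-EMT1, and a trend gave 126 lower. For PC3-EMT14 against PC3-EMT1, 254 higher and 50 lower became 0 and 0 without the untransduced pair, 126 and 35 without the sh4 pair, 102 and 15 with 32 added, 165 and 26 with the mean of probe sets, and 99 and 22 with quantile normalization. The cause was not tested. Signal under the bacterial controls limits ITGB8 in EMT lines and in sh4 of PC3-EMT14, and ITGA1 in PC3-Epi.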

Other observations

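Some probe sets of 1 gene did not give the same difference, and these were picked after their values were seen. One of the 4 probe sets of ITGB5 was 1.07 higher in EMT lines than in PC3-Epi (5.81, 5.65 and 5.72 by line, against 4.66 in PC3-Epi), while the other 3 differed by 0.05 to 0.17. One of the 3 of ITGB2 was 0.55 higher, and the other 2 were 0.40 and 0.38 lower. The second brightest of ITGB3 had 6.58 with sh4 and 9.29 with Scr in PC3-EMT14, against 6.70 and 7.75 in PC3-EMT1. TNS4, an epithelial tensin that binds beta tails, had the largest standard error (0.68) of the other adhesion genes, with 9.19, 7.24 and 8.53 in the EMT lines, against 9.07 in PC3-Epi.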
